A study of Rattus norvegicus with 12 samples.

Results

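Endothelial, smooth muscle and pericyte marker genes were followed through the hearts of ZSF1 rats in 3 states: obese and given nicotinamide, obese, and lean. The members are 34 genes taken by symbol: 23 endothelial, 4 smooth muscle and 7 pericyte markers. Of these, 32 are among the 17602 genes of the expression table. Pecam1 and Robo4 have no row under those symbols and were not analysed here.

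The study asked whether nicotinamide (NAM), a form of vitamin B3 from which cells make NAD+, acts on the heart in a model of heart failure with preserved ejection fraction (HFpEF). RNA was sequenced from 12 samples labelled cardiac muscle, 4 per group. The obese+NAM group is ZSF1 obese rats that received 24 mM NAM in their drinking water between weeks 8 and 20 of age. The obese group is ZSF1 obese rats and the lean group is lean ZSF1 controls, with no treatment given in the labels of either. All groups share the ZSF1 strain, housing under a light-dark cycle and free access to food and water. The labels call the obesity diet-induced, while the ZSF1 strain is known for obesity from inherited leptin receptor defects on a hypertensive background. The sources used here do not give the age at sampling. The labels do not say that the samples came from separate animals, so the p-values below measure only the spread between these samples.

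Endothelial cells line every vessel and the chambers of the heart, hold together through VE-cadherin junctions and take their survival and growth signals from VEGF and angiopoietin receptors. Pericytes wrap capillaries and are recruited through the PDGF-B receptor, and smooth muscle cells contract arteries and arterioles. In the heart the capillary endothelium also passes fatty acids to the muscle cells, which live mostly on them. These are bulk samples, in which fewer cells of a type and less RNA per cell cannot be told apart.

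Expression was deposited as TPM, a length-corrected share of each sample's transcripts, so levels can be compared between genes, while the depth behind each value is unknown. Because TPM are shares of 1 total, each comparison was made on the values as deposited and again with every sample divided by a median-of-ratios size factor, here called rescaled. Mitochondrially encoded transcripts held 69.9 to 73.8% of the TPM in obese+NAM samples, 74.6 to 75.5% in obese samples and 66.2 to 70.4% in lean samples. Over the 10526 genes tested, the median log2 change from lean in obese samples was -0.20 as deposited and 0.00 rescaled. For obese+NAM against obese it was 0.25 as deposited and -0.01 rescaled. Cardiomyocyte markers were abundant in every sample, at a summed 23269 to 26660 TPM in obese+NAM, 19178 to 21641 TPM in obese and 26899 to 30894 TPM in lean samples, as the tissue label says. A gene is called here at a limma adjusted p below 0.05 across all genes tested, and changes are differences of log2(TPM + 1). Counts at an unadjusted p below 0.05 are given as well. The share of all genes at that threshold was not counted, so those counts cannot be set against all genes.

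The promoters of 3 members described below stand here. They are Aqp1, which had the smallest p of the endothelial members between obese and lean samples as deposited, and the neighbouring pair Abcc9 and Kcnj8. Of this pair Abcc9 was called as deposited and Kcnj8 was not. Rescaled, none of these genes was called in any comparison. Sequences are those of RefSeq on the GRCr8 assembly, read from 250 bases before to 50 bases after the start of the gene on its own strand. Capitals mark GGAA, the core of the site bound by ETS factors such as Erg, on either strand, so that TTCC is marked too. The Aqp1 promoter is chr4:85812534-85812833 on the plus strand, the Abcc9 promoter chr4:177386299-177386598 on the minus strand and the Kcnj8 promoter chr4:177246499-177246798 on the minus strand.
Aqp1: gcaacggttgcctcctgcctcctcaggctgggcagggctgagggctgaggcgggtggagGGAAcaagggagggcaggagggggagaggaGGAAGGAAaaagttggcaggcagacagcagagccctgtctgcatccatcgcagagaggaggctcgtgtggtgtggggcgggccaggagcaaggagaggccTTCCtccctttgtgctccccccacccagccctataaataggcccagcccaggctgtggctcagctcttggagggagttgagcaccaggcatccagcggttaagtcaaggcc
Abcc9: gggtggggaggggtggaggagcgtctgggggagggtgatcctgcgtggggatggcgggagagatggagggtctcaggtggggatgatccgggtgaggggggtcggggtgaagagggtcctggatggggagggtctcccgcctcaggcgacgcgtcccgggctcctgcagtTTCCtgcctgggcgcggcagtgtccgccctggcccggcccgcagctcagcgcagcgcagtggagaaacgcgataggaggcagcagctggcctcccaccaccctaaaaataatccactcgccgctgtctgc
Kcnj8: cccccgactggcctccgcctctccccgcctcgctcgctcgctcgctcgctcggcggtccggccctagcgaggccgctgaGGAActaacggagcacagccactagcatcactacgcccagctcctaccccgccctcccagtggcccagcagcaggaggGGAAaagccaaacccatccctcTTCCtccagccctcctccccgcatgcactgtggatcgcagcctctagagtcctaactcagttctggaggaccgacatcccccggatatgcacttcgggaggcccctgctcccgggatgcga
Aqp1 holds 4 such matches, Abcc9 1 and Kcnj8 3. RefSeq promoters were at hand for 21 members, and GGAA was found in 14 of 15 endothelial, 2 of 2 smooth muscle and 5 of 5 pericyte entries. It is in 95.8% of all 33469 rat promoters of this length, so its presence does not set the members apart. A search for the serum response factor motif (CArG box) that allowed no mismatch found it in 1.64% of all promoters and in no window of these members. Forms with a mismatch, such as those of Acta2, were not searched. A match here is a stretch of letters and not a shown site.

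The vascular markers spanned a wide range of levels. Fabp4, a fatty acid carrier of capillary endothelium and of adipocytes, was highest at a 12-sample mean of 606 TPM, and the pericyte marker Rgs5, a brake on G-protein signalling, followed at 131 TPM. The adipocyte list, without Fabp4, summed to 3.69 to 7.33 TPM in obese+NAM samples, 4.11 to 7.76 TPM in obese samples and 4.61 to 4.93 TPM in lean samples. Next came Aqp1, a water channel of capillary endothelium and red blood cells, at 78.8 TPM, Rgcc, a cell cycle regulator, at 28.0 TPM, and Emcn, a surface glycoprotein of capillaries and veins, at 25.3 TPM. Another 4 members averaged under 1 TPM over the 12 samples and did not pass the filter on low values. They are Plvap, a fenestral diaphragm protein, at 0.201 TPM, Cnn1, a smooth muscle calponin, at 0.214 TPM, Notch3, the mural Notch receptor, at 0.577 TPM and Cspg4, the NG2 proteoglycan of pericytes, at 0.673 TPM. The filter kept 28 members (at least 1 TPM in at least 4 samples): 20 endothelial, 3 smooth muscle and 5 pericyte genes. Within a group the spread differed between genes, with a median coefficient of variation over members of 15.8% in obese+NAM, 13.7% in obese and 20.4% in lean samples.

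**Figure D1:**
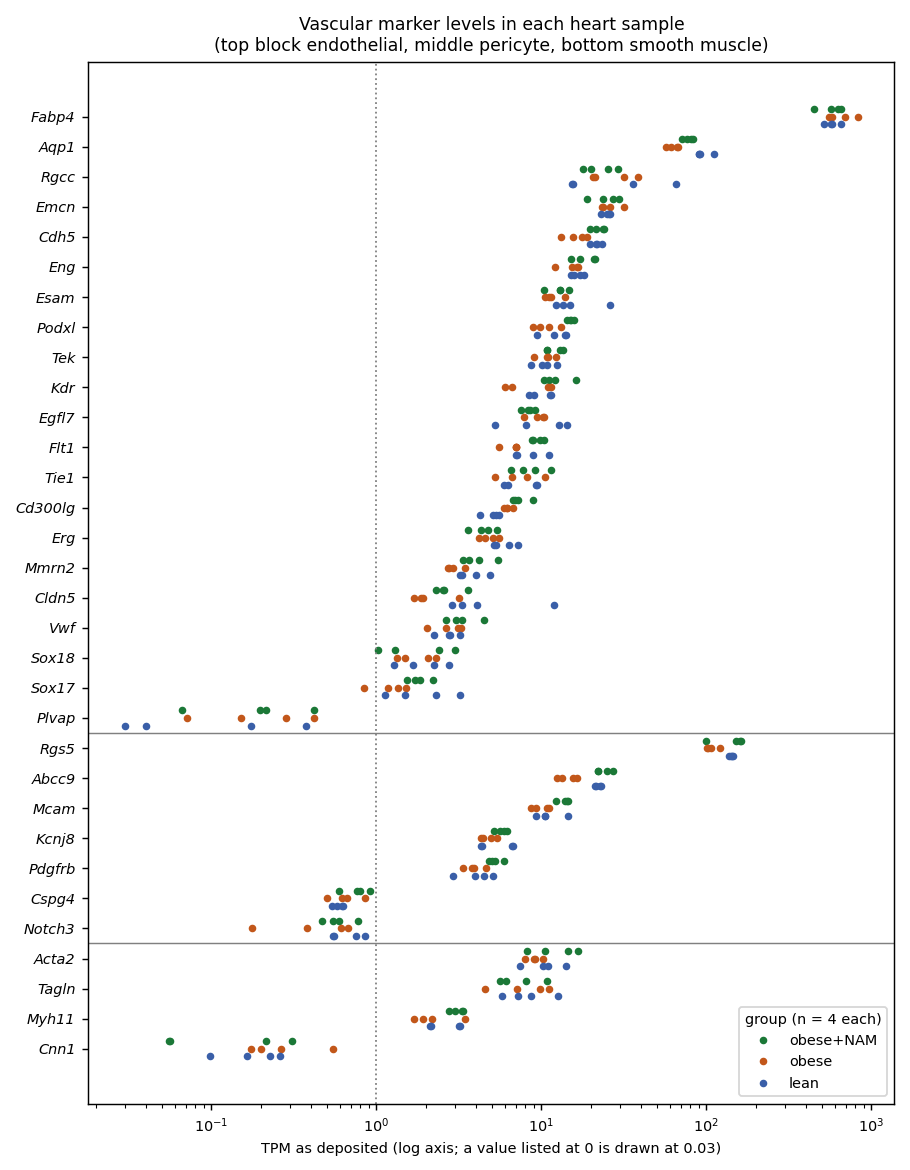
TPM as deposited (log axis) of the 32 members found in the table, 1 dot per sample, with 4 obese+NAM, 4 obese and 4 lean samples per gene; the dotted line marks 1 TPM. Fabp4, Rgs5 and Aqp1 lie highest, Plvap, Cnn1, Cspg4 and Notch3 stay below 1 TPM in all samples, and a single lean dot stands right of the others for Cldn5, Esam and Rgcc.

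Lean replicate 1 lay far from the other samples in some endothelial genes. It had the highest TPM of all 12 samples for Flt1, Esam, Cldn5, Aqp1, Sox17 and Rgcc, and the lowest for Tek, Egfl7, Plvap, Pdgfrb and Kcnj8. Other samples were extreme for more of the 32 members. Obese+NAM replicates 3 and 1 were highest for 9 and 8 as deposited, and obese replicate 3 was lowest for 7. Cldn5, the tight junction claudin of endothelium, reached 11.9 TPM there, against 2.87 to 4.07 TPM in the other lean samples. Esam, a junctional adhesion molecule, had 26.0 TPM there, against 12.2 to 14.9 TPM in the other lean samples. Rgcc had 65.2 TPM there and 35.7 TPM in lean replicate 4, against 15.5 and 15.3 TPM in lean replicates 2 and 3. Genes of endothelial activation outside the list, looked at after their values were seen, followed the same sample. The leukocyte adhesion receptor Icam1 was at 22.1 TPM in lean replicate 1 and at most 1.96 TPM in any other sample, and Vcam1 was at 19.2 TPM there and at most 2.61 TPM elsewhere. The apelin receptor Aplnr went the other way, with 1.13 TPM in lean replicate 1, against 11.5, 10.3 and 3.31 TPM in lean replicates 2, 3 and 4. The immediate early gene Fos had 13.98 TPM in lean replicate 1 and 9.57 TPM in the next highest sample, obese replicate 3. For the comparisons with lean, values without this sample are given below for some genes only. They are not given for Cldn5, Esam, Rgcc or Abcc9. Nor are they given for Vegfb, Col4a1 and Col4a2, for which lean replicate 1 was the highest of the 12 samples. Leaving out lean replicate 1 took the genes called between obese and lean as deposited to 1006, against 1770 with it.

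**Figure D2:**
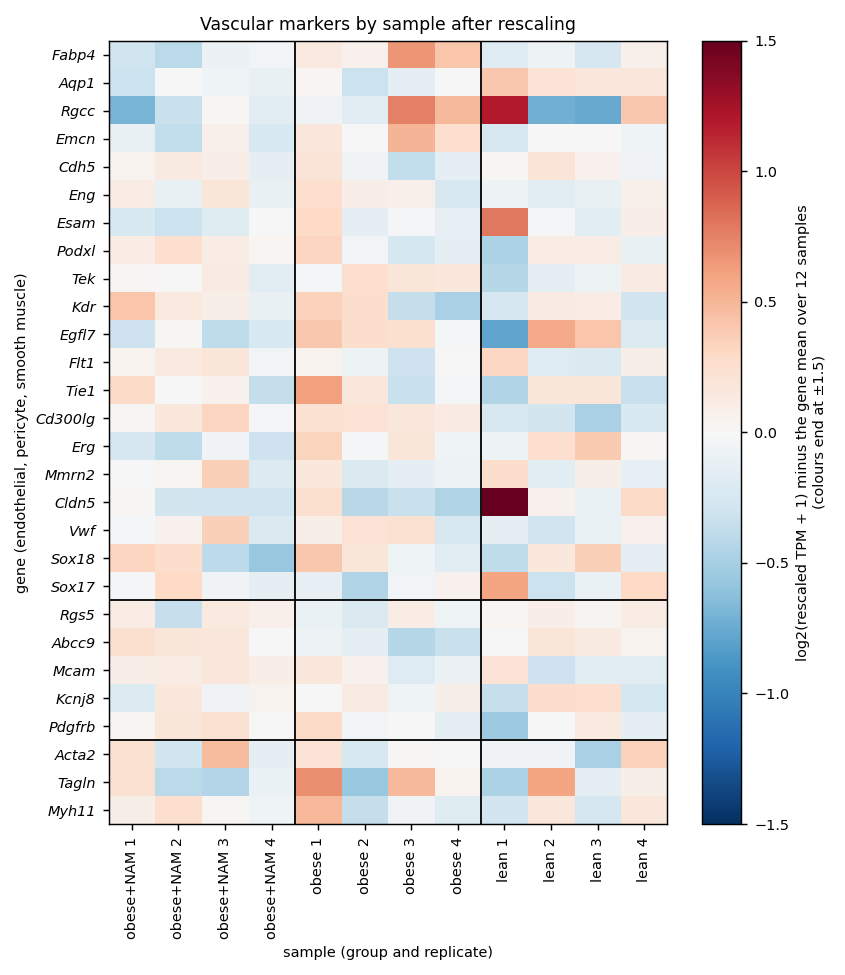
Rescaled levels of the 28 tested members (rows) in each sample (columns), as log2(rescaled TPM + 1) minus the gene's mean over the 12 samples, red above and blue below, with colours ending at ±1.5. Lean replicate 1 is the reddest column for Cldn5, Rgcc and Esam and among the bluest for Egfl7 and Pdgfrb, while Abcc9 is blue in the obese columns and Cd300lg is blue in the lean columns.

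Between obese and lean hearts, 3 vascular markers were called lower as deposited, Aqp1, Abcc9 and Cdh5, and none higher. Over all genes tested 16.8% were called on this scale, 16.5% lower and 0.352% higher, so 3 of 28 members is no more than the share of all genes. At an unadjusted p below 0.05 there were 8 members lower and 1 higher. The share of all genes lower at that threshold was not counted and is at least the 16.5% called. After rescaling, 1 member was called higher, Cd300lg, and none lower, beside 1.34% of all genes called, 0.589% higher and 0.751% lower. At an unadjusted p below 0.05 these were 4 higher (Cd300lg, Emcn, Fabp4 and Tek) and 3 lower (Abcc9, Aqp1 and Cldn5). The median change of the 28 members was -0.16 as deposited and 0.06 rescaled, beside -0.20 and 0.00 over all genes. With TPM recomputed without mitochondrially encoded genes, Aqp1, Abcc9 and Cdh5 were not called, at changes of -0.30, -0.31 and -0.11, and Cd300lg was called higher at 0.60 (limma adjusted p = 0.0275).

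Aqp1 was at 66.0, 56.9, 60.9 and 67.8 TPM in obese replicates 1 to 4, against 111, 91.5, 90.6 and 90.3 TPM in lean replicates 1 to 4. All 4 obese samples lay below all 4 lean samples. The group means were 62.9 ± 4.94 TPM in obese and 96.0 ± 10.3 TPM in lean samples (SD, n = 4 each), a log2 change of -0.60 (SE 0.09, limma adjusted p = 0.00233). The groups also did not overlap after rescaling, where the change was -0.34 with a limma adjusted p of 0.0991, so the call depends on the scale. Without lean replicate 1 the change as deposited was -0.53 (limma adjusted p = 0.00619). Red blood cells carry Aqp1 too, and the summed erythroid markers (5 genes, none at 0 in every sample) were at 1662 to 4020 TPM in obese and 724 to 1596 TPM in lean samples, with none of the 5 called by limma. At an unadjusted p below 0.05, 1 was higher and 1 lower as deposited, and 4 were higher and 0 lower after rescaling, with medians of 1.04 and 1.29. Their part in the Aqp1 values was not tested.

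Abcc9 encodes SUR2, the sulfonylurea receptor subunit of ATP-sensitive potassium channels in vessel walls and in heart muscle. It had 15.6, 16.4, 12.5 and 13.4 TPM in obese replicates 1 to 4, against 21.4, 23.0, 22.5 and 21.3 TPM in lean replicates 1 to 4. The groups did not overlap, and the lean samples lay close together. The change was -0.58 as deposited (SE 0.10, limma adjusted p = 0.00364) and -0.34 after rescaling (SE 0.09, limma adjusted p = 0.0822). Cardiomyocyte markers were lower too in this comparison: as deposited 10 of 10 tested genes of that list were called lower, at a median change of -0.52. After rescaling 1 of 10 was called lower at a median of -0.26, with all 10 changes negative. At an unadjusted p below 0.05, 8 were lower and 0 higher after rescaling. Over all genes 16.5% were called lower as deposited and 0.751% rescaled. Kcnj11, the pore subunit of the heart muscle channel and not a member, was looked at after its values were seen, and was at 6.99 ± 1.05 TPM in obese and 11.3 ± 1.23 TPM in lean samples (SD, n = 4 each). Its change was -0.63 as deposited (limma adjusted p = 0.00538) and -0.39 rescaled (limma adjusted p = 0.119). The part of heart muscle cells in the Abcc9 difference was not tested.

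Cdh5 encodes VE-cadherin, the adhesion protein of endothelial junctions. It was at 18.9, 17.5, 13.1 and 15.5 TPM in obese replicates 1 to 4, against 21.8, 23.3, 21.4 and 19.7 TPM in lean replicates 1 to 4. The groups did not overlap as deposited, with a change of -0.40 (SE 0.11, limma adjusted p = 0.0274), but overlapped after rescaling, where the change was -0.15 (limma adjusted p = 0.544). The call as deposited was also lost when any of lean replicates 1, 2 and 3 or obese replicates 3 and 4 was left out, with changes of -0.47 to -0.30 and limma adjusted p from 0.0195 to 0.0734 over the 12 samples left out in turn.

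Cd300lg, a glycoprotein of capillary endothelium to which lymphocytes can adhere, differed in the opposite direction. It was at 6.20, 6.77, 6.16 and 5.92 TPM in obese replicates 1 to 4, against 5.52, 5.06, 4.23 and 5.30 TPM in lean replicates 1 to 4. No obese sample lay within the lean range on either scale. The change was 0.49 rescaled (SE 0.09, limma adjusted p = 0.0272) and 0.27 as deposited (SE 0.10, limma adjusted p = 0.0842). The rescaled call was lost when any of lean replicates 1, 2 and 3 or obese replicates 2, 3 and 4 was left out, with changes of 0.43 to 0.52 and limma adjusted p from 0.0245 to 0.0759, and was 0.52 (adjusted p = 0.0552) without lean replicate 1.

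The other angiogenic receptors and structural markers did not pass the test between obese and lean samples. Kdr, the main VEGF receptor, was at 8.77 ± 2.84 TPM in obese and 10.1 ± 1.54 TPM in lean samples (SD, n = 4 each), with a change of -0.22 as deposited and 0.02 rescaled. Its samples had 11, 11.4, 6.65 and 6.0 TPM in obese replicates 1 to 4, against 9.05, 11.3, 11.4 and 8.44 TPM in lean replicates 1 to 4, so that obese replicates 3 and 4 lay below all lean samples and the other two did not. Flt1, the decoy VEGF receptor, was at 6.65 ± 0.759 TPM in obese and 8.56 ± 1.93 TPM in lean samples. The Flt1 groups did not overlap as deposited, at a change of -0.31 (limma adjusted p = 0.125), and overlapped rescaled, at -0.08. Tek and Tie1, the angiopoietin receptor and its partner, were at 10.8 ± 1.34 and 7.63 ± 2.25 TPM in obese and at 10.5 ± 1.60 and 7.70 ± 1.85 TPM in lean samples. Rescaled, Tek, Emcn and Fabp4 differed by 0.28, 0.31 and 0.43 (limma adjusted p = 0.235, 0.200 and 0.120), none of them called. As deposited they differed by 0.04, 0.06 and 0.18. The Emcn groups did not overlap rescaled. Cldn5 had the most negative change of the list, -0.89 (SE 0.32, limma adjusted p = 0.0786), with lean replicate 1 far above the rest. The transcription factors Erg, Sox17 and Sox18 differed by -0.26, -0.41 and -0.08 on the log2 scale as deposited and were not called, with limma adjusted p from 0.145 to 0.824.

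For the mural cells, Rgs5 was at 100.4, 102, 121 and 107 TPM in obese replicates 1 to 4, against 143, 141, 136 and 145 TPM in lean replicates 1 to 4. All obese samples lay below all lean samples as deposited, while limma gave an adjusted p of 0.0574 at a change of -0.39. After rescaling the groups overlapped and the change was -0.14. Pdgfrb, the PDGF-B receptor of pericytes, was at 3.92 ± 0.523 TPM in obese and 4.12 ± 0.925 TPM in lean samples (SD, n = 4 each), with 2.92, 4.46, 5.11 and 3.98 TPM in lean replicates 1 to 4. Kcnj8, the pore subunit of the vascular potassium channel, was at 4.76 ± 0.473 TPM in obese and 5.52 ± 1.37 TPM in lean samples. Of the smooth muscle genes, Acta2 (smooth muscle actin) was at 9.11 ± 0.891 TPM in obese and 10.7 ± 2.70 TPM in lean samples, with 10.9, 10.3, 7.43 and 14.01 TPM in lean replicates 1 to 4. Myh11, smooth muscle myosin, was at 2.31 ± 0.793 TPM in obese and 2.66 ± 0.608 TPM in lean samples, with 2.16, 3.16, 2.12 and 3.21 TPM in lean replicates 1 to 4. Tagln, which binds actin, was at 8.15 ± 2.93 TPM and 8.56 ± 2.91 TPM in the same groups. None of these was called on either scale.

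With NAM, 7 of the 28 tested vascular markers were called higher than in untreated obese hearts as deposited, and none was called lower. The 7 are the endothelial genes Cdh5, Podxl, Flt1 and Aqp1 and the pericyte genes Abcc9, Mcam and Rgs5. Over all genes tested 29.2% were called, 28.8% higher and 0.466% lower, so 7 of 28 is near the share among all genes. At an unadjusted p below 0.05 there were 11 higher and 0 lower. The share of all genes higher at that threshold was not counted and is at least the 28.8% called. After rescaling limma called none of the 28, beside 0.713% of all genes called, 0.2% higher and 0.513% lower, with 1 higher and 3 lower at an unadjusted p below 0.05. The median change of the members was 0.27 as deposited and -0.02 rescaled, beside 0.25 and -0.01 over all genes. With TPM recomputed without mitochondrially encoded genes, 1 member was called higher. As deposited, the members called higher numbered 3 without obese replicate 3, 4 without obese replicate 4, 3 without obese+NAM replicate 1, 2 without obese+NAM replicate 3 and 4 without obese+NAM replicate 4.

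That member was Abcc9, with a change of 0.53 there (limma adjusted p = 0.0363). As deposited it had 27.2, 22.1, 24.9 and 22.0 TPM in obese+NAM replicates 1 to 4, against 15.6, 16.4, 12.5 and 13.4 TPM in obese replicates 1 to 4. All obese+NAM samples lay above all obese samples, on both scales. The change was 0.70 as deposited (SE 0.10, limma adjusted p = 0.00292), the largest of the 28, and 0.39 rescaled (SE 0.09, limma adjusted p = 0.0680). The group means were 24.1 ± 2.49 TPM in obese+NAM, 14.5 ± 1.80 TPM in obese and 22.0 ± 0.842 TPM in lean samples (SD, n = 4 each). The comparison of obese+NAM with obese and that of obese with lean share the obese samples. Beside Abcc9, 8 of 10 tested cardiomyocyte markers were called higher as deposited at a median change of 0.30. After rescaling none of 10 was called, at a median of -0.02, with 2 higher and 1 lower at an unadjusted p below 0.05. Over all genes 28.8% were called higher as deposited and 0.2% rescaled. Kcnj11 had 9.88 ± 1.304 TPM in obese+NAM and 6.99 ± 1.05 TPM in obese samples, a change of 0.45 as deposited (limma adjusted p = 0.0161) and 0.16 rescaled (limma adjusted p = 0.562). Between obese+NAM and lean samples Abcc9 differed by 0.12 as deposited and 0.05 rescaled and was not called. There 2 of 10 cardiomyocyte markers were called lower as deposited and 3 rescaled, beside 0.969% and 1.59% of all genes. At an unadjusted p below 0.05, 6 were lower and 0 higher on each scale. The part of heart muscle cells was not tested here either.

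Abcc9 and its neighbour Kcnj8, whose start sites lie 139.8 kb apart on the same strand of chromosome 4, were not both called. Kcnj8 was at 5.15, 5.93, 5.61 and 6.18 TPM in obese+NAM replicates 1 to 4 and at 4.43, 5.35, 4.34 and 4.92 TPM in obese replicates 1 to 4. These ranges overlap, and the change was 0.22 as deposited and -0.05 rescaled, which limma did not call. The ratio of Abcc9 to Kcnj8 TPM within a sample does not depend on the scale. It was 4.25 ± 0.784 in obese+NAM, 3.05 ± 0.342 in obese and 4.16 ± 0.884 in lean samples (SD, n = 4 each). The lowest obese+NAM ratio was 3.56 and the highest obese ratio 3.52, and the exact permutation p was 0.0286, the smallest that 70 splits of 4 against 4 can give. Adjusted over the 18 ratio tests made it was 0.171. For obese against lean the ratios overlapped, with obese replicate 1 at 3.52 above lean replicates 2 and 3 at 3.45 and 3.35, and the exact permutation p was 0.0857 (adjusted 0.220). This ratio and the others below were chosen after the values were seen.

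Cdh5 had 24.0, 21.5, 23.8 and 19.8 TPM in obese+NAM replicates 1 to 4, against 18.9, 17.5, 13.1 and 15.5 TPM in obese replicates 1 to 4. All obese+NAM samples lay above all obese samples as deposited, but not after rescaling. The change was 0.44 as deposited (SE 0.11, limma adjusted p = 0.0125) and 0.13 rescaled (limma adjusted p = 0.611). Podxl, the podocalyxin of the luminal endothelial surface, had 15.8, 14.9, 15.1 and 14.2 TPM in obese+NAM replicates 1 to 4, against 13.2, 11.1, 8.88 and 9.77 TPM in obese replicates 1 to 4. Its change was 0.46 (SE 0.13, limma adjusted p = 0.0229), with obese replicate 1 the closest to the obese+NAM samples. Flt1 had 9.79, 8.90, 10.4 and 8.75 TPM in obese+NAM replicates 1 to 4, against 7.03, 7.03, 5.51 and 7.02 TPM in obese replicates 1 to 4. Its change was 0.45 (SE 0.13, limma adjusted p = 0.0241), and obese replicate 3 was the lowest sample. Aqp1 had 71.6, 76, 82.5 and 80.3 TPM in obese+NAM replicates 1 to 4, and its obese values are given above. Its means were 77.6 ± 4.84 TPM in obese+NAM and 62.9 ± 4.94 TPM in obese samples, a change of 0.30 (SE 0.09, limma adjusted p = 0.0261). Of the 5 erythroid genes limma called none here, with 0 higher and 3 lower as deposited and 0 higher and 4 lower rescaled at an unadjusted p below 0.05. Podxl, Flt1 and Aqp1 had every obese+NAM sample above every obese sample as deposited, and after rescaling they overlapped, with Aqp1 at 70.6 ± 6.66 against 71.7 ± 7.97 on that scale.

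Of the pericyte genes, Mcam (CD146, an adhesion molecule of vessel walls) had 14.4, 12.3, 14.5 and 13.8 TPM in obese+NAM replicates 1 to 4, against 10.9, 11.1, 8.62 and 9.34 TPM in obese replicates 1 to 4. Its groups did not overlap as deposited, and the change was 0.43 (SE 0.13, limma adjusted p = 0.0235). Rgs5 was at 162, 99.6, 159 and 152 TPM in obese+NAM replicates 1 to 4, against 100.4, 102, 121 and 107 TPM in obese replicates 1 to 4. In 3 obese+NAM samples it lay above all obese samples, and in obese+NAM replicate 2 below all of them, for a change of 0.39 (SE 0.13, limma adjusted p = 0.0428). Abcc9 and Cdh5 stayed called whichever of the 12 samples was left out. Over the same omissions Podxl ranged from 0.38 to 0.55 (adjusted p 0.0124 to 0.0671), lost without obese replicates 3 or 4 or obese+NAM replicates 1 or 3. Mcam ranged from 0.37 to 0.48 (0.00976 to 0.0673), lost without obese replicates 3 or 4 or obese+NAM replicates 1, 3 or 4. Flt1 ranged from 0.38 to 0.49 (0.0113 to 0.0704), lost without obese replicate 3 or obese+NAM replicates 1 or 3. Aqp1 ranged from 0.25 to 0.34 (0.0144 to 0.0736), lost without obese replicates 2 or 3 or obese+NAM replicates 3 or 4. Rgs5 ranged from 0.32 to 0.55 (0.00273 to 0.123), and its call was lost on leaving out lean replicates 2, 3 or 4, obese replicates 1, 2 or 4 or obese+NAM replicates 1, 3 or 4.

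Among the members not called, Kdr was at 12.4 ± 2.56 TPM in obese+NAM and 8.77 ± 2.84 TPM in obese samples (SD, n = 4 each), a change of 0.49 as deposited (limma adjusted p = 0.0788) and 0.19 rescaled. Its obese+NAM replicates 1 to 4 had 16.1, 11.1, 12.1 and 10.3 TPM, and replicates 2 and 4 lay within the obese range. Pdgfrb had 5.23, 5.001, 5.91 and 4.83 TPM in obese+NAM replicates 1 to 4, against 4.62, 3.89, 3.81 and 3.36 TPM in obese replicates 1 to 4. It had no overlap as deposited and a change of 0.35 (limma adjusted p = 0.0663). It was called without lean replicate 1 (adjusted p = 0.0322). Fabp4 and Emcn had lower means in obese+NAM than in obese samples. Fabp4 was at 573 ± 91.5 TPM in obese+NAM and 663 ± 125 TPM in obese samples, with a rescaled change of -0.53 (limma adjusted p = 0.0938). Its groups overlapped as deposited and did not overlap rescaled. Emcn was at 24.8 ± 4.55 TPM in obese+NAM and 26.1 ± 3.79 TPM in obese samples, with a rescaled change of -0.39 (limma adjusted p = 0.138). The smooth muscle genes Acta2, Myh11 and Tagln had log2 differences of 0.37, 0.33 and -0.06 as deposited and of 0.07, 0.10 and -0.35 rescaled, none of them called. Acta2 had 14.4, 8.18, 16.6 and 10.5 TPM in obese+NAM replicates 1 to 4, against 10.2, 7.99, 9.20 and 9.06 TPM in obese replicates 1 to 4. Myh11 had 3.33, 3.29, 2.99 and 2.75 TPM in obese+NAM replicates 1 to 4, against 3.46, 1.69, 2.18 and 1.91 TPM in obese replicates 1 to 4. The groups overlapped for both, for Myh11 through obese replicate 1, its highest sample of the 8.

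**Figure D3:**
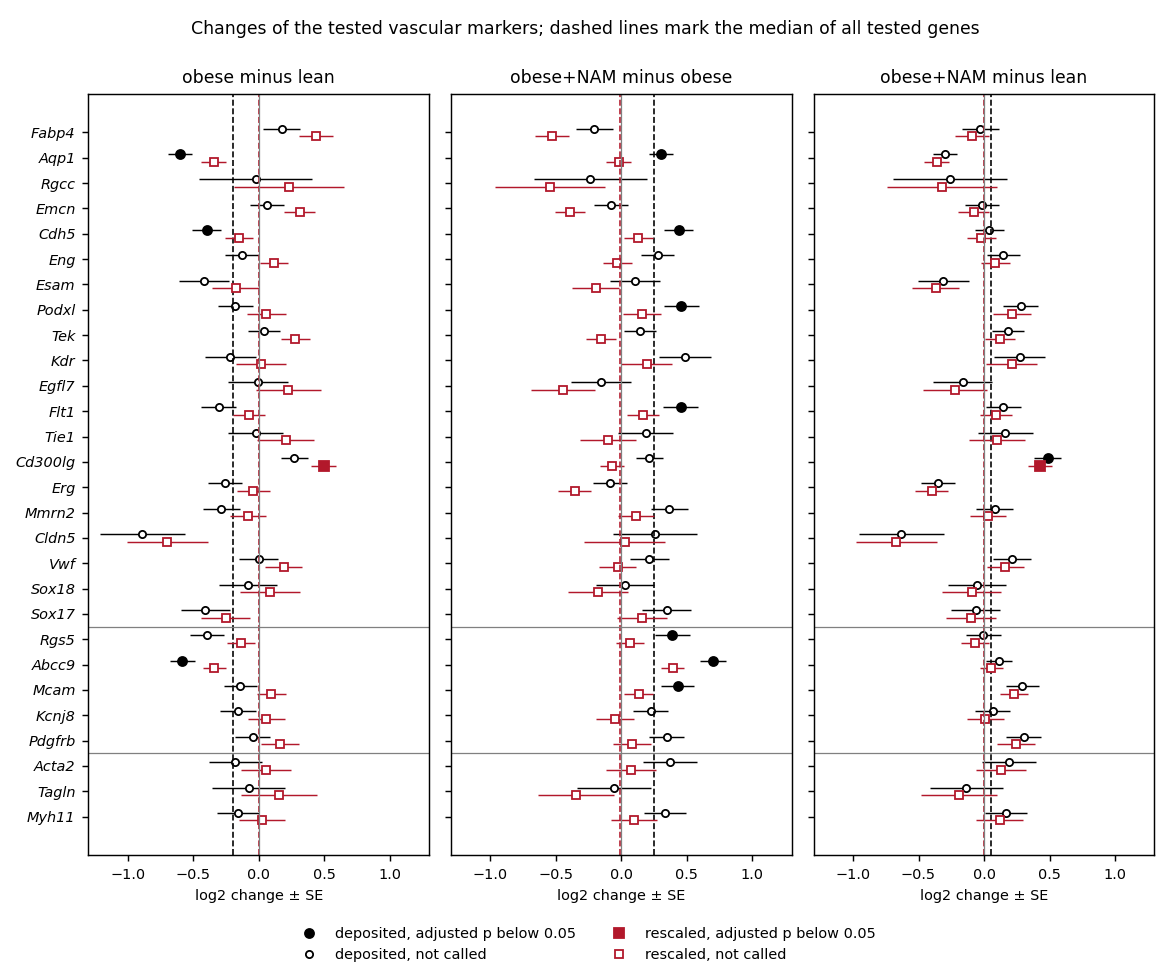
Change of each tested member in the 3 comparisons (log2 of TPM + 1, ± SE), on the deposited scale (circles) and rescaled (squares), filled where limma's adjusted p was below 0.05, with dashed lines at the median of all tested genes. The deposited points lie around the shifted median, -0.20 for obese minus lean and 0.25 for obese+NAM minus obese, and Cd300lg is the filled square in the obese minus lean and obese+NAM minus lean panels.

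Between obese+NAM and lean hearts a single member was called, Cd300lg, which was higher on both scales. Over all genes tested 1.83% were called as deposited, 0.865% higher and 0.969% lower, and 2.36% rescaled, 0.77% higher and 1.59% lower. At an unadjusted p below 0.05 there were 3 members higher and 2 lower as deposited, and 1 higher and 2 lower rescaled. The 2 lower were Aqp1 and Erg on both scales, with Erg at -0.35 as deposited and -0.40 rescaled (limma adjusted p = 0.202 and 0.133). Cd300lg was at 7.25, 6.93, 8.85 and 6.76 TPM in obese+NAM replicates 1 to 4, against 5.52, 5.06, 4.23 and 5.30 TPM in lean replicates 1 to 4. Every obese+NAM sample lay above every lean sample. The change was 0.48 as deposited (SE 0.10, limma adjusted p = 0.0329) and 0.42 rescaled (SE 0.09, limma adjusted p = 0.0362). The deposited call was lost on leaving out lean replicates 2, 3 or 4 or obese+NAM replicates 1, 3 or 4 (changes 0.41 to 0.52, adjusted p 0.0384 to 0.105). The rescaled call was lost without any one of the 4 lean samples or obese+NAM replicates 1, 2 or 3 (changes 0.36 to 0.47, adjusted p 0.0428 to 0.104). With all genes kept, the adjusted p was 0.0516 as deposited and 0.0570 rescaled.

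Aqp1 had no overlap between obese+NAM and lean samples on either scale, at 77.6 ± 4.84 TPM in obese+NAM and 96.0 ± 10.3 TPM in lean samples (SD, n = 4 each), and was not called. Its change was -0.30 as deposited (limma adjusted p = 0.124) and -0.36 rescaled (limma adjusted p = 0.0681). Cdh5, Kdr, Acta2, Rgs5 and Pdgfrb had log2 differences of 0.04, 0.27, 0.19, -0.01 and 0.30 as deposited, with limma adjusted p from 0.273 to 0.988. The pericyte marker Mcam differed by 0.29 and the smooth muscle gene Myh11 by 0.17, neither of them called. Mcam had 14.5, 9.27, 10.5 and 10.5 TPM in lean replicates 1 to 4, of which replicate 1 lay within the obese+NAM range. The median over the 28 members was 0.07 as deposited and 0.02 rescaled, beside 0.05 and 0.00 over all genes.

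Ratios between members of 1 sample do not depend on the scale, but each depends on the levels of both genes. Those below share Cdh5 as the denominator, which was itself called in obese against lean and in obese+NAM against obese samples as deposited. Cd300lg relative to Cdh5 was 0.335 ± 0.0295 in obese+NAM, 0.392 ± 0.0586 in obese and 0.234 ± 0.0325 in lean samples (SD, n = 4 each). All 8 obese and obese+NAM ratios lay above the highest lean ratio of 0.269, and both comparisons with lean had an exact permutation p of 0.0286 and an adjusted p of 0.171. The pair was chosen with its values known, and Cd300lg and Cdh5 had been called in opposite directions between obese and lean samples, on different scales. These p-values therefore restate the lack of overlap, and the adjustment does not cover the choice of pair. The ratios of mural genes to the endothelial Cdh5 overlapped between the groups. Rgs5 to Cdh5 was 6.44 ± 1.28 in obese+NAM, 6.81 ± 1.74 in obese and 6.57 ± 0.543 in lean samples, with exact permutation p from 0.771 to 0.914. Pdgfrb to Cdh5 was 0.236 ± 0.0136 in obese+NAM, 0.243 ± 0.0334 in obese and 0.191 ± 0.0434 in lean samples. Its lowest value was 0.134 in lean replicate 1, and the exact permutation p was 0.0857 for both comparisons with lean. Acta2 to Cdh5 was 0.554 ± 0.134 in obese+NAM, 0.570 ± 0.102 in obese and 0.499 ± 0.154 in lean samples. Aqp1 to Cdh5 was 3.51 ± 0.437 in obese+NAM, 3.94 ± 0.674 in obese and 4.46 ± 0.507 in lean samples, with an exact permutation p of 0.0571 for obese+NAM against lean. None of the 18 tests was below 0.05 after adjustment. Because 0.0286 is the smallest p possible here, an adjusted p below 0.05 needed most of the 18 tests to reach it. The adjusted values therefore do not show that a ratio was unchanged.

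**Figure D4:**
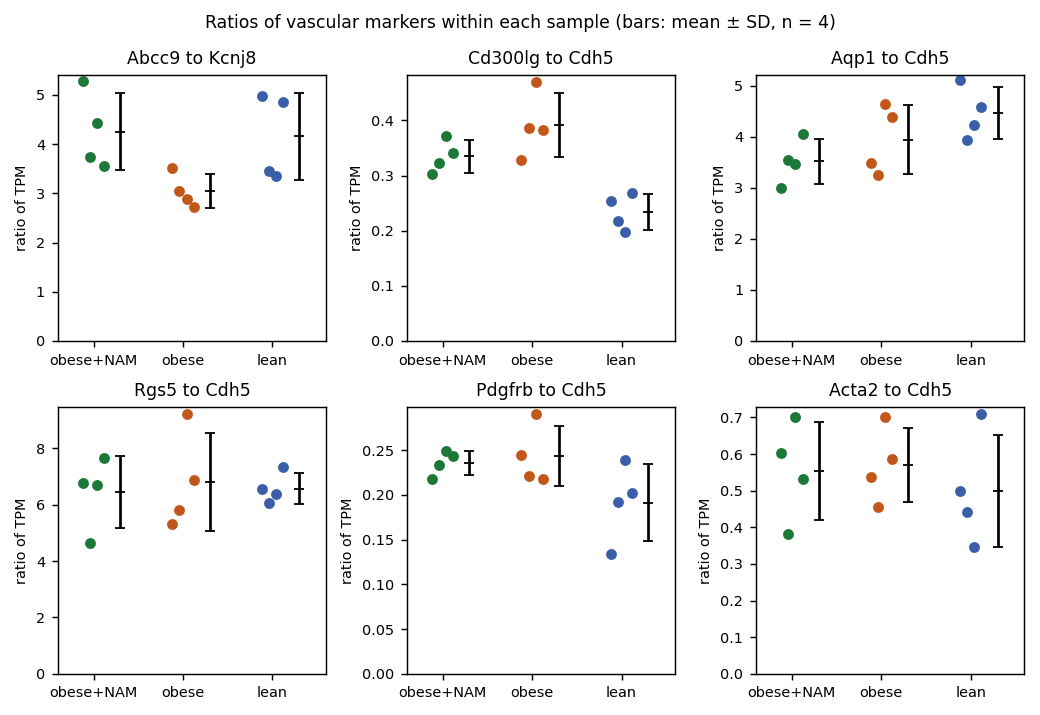
Within-sample ratios of TPM for 6 pairs of members, 1 dot per sample with mean ± SD beside it (n = 4), for obese+NAM, obese and lean samples from left to right. Cd300lg to Cdh5 is higher in all obese+NAM and obese samples than in any lean sample, Abcc9 to Kcnj8 has its lowest mean in the obese group, whose values overlap the lean ones, and Rgs5 to Cdh5 overlaps between all groups.

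Other genes of the same vessels were counted by list. Between obese and lean samples, 2 of 10 tested ligands and receptors of the VEGF, angiopoietin and apelin group were called lower as deposited and none higher, beside 16.5% of all genes called lower. Apln, the peptide ligand of the apelin receptor, was at 1.95 ± 0.175 TPM in obese and 4.87 ± 0.958 TPM in lean samples (SD, n = 4 each), a change of -0.98 (SE 0.12, limma adjusted p = 0.00102). It was called rescaled as well, at -0.80 (limma adjusted p = 0.0130, and 0.0502 without lean replicate 3). In obese+NAM samples Apln was at 2.75 ± 0.357 TPM, a change from lean of -0.64 as deposited (limma adjusted p = 0.0219) and -0.68 rescaled (limma adjusted p = 0.0162). Without lean replicates 2 or 3 or obese+NAM replicates 3 or 4 the deposited call was lost, with adjusted p up to 0.0787, and without obese+NAM replicate 3 the rescaled call (0.0592). Vegfb, a ligand of Flt1, was the other gene called, at 15.1 ± 2.06 TPM in obese and 21.4 ± 2.76 TPM in lean samples, a change of -0.48 as deposited (limma adjusted p = 0.0119) and -0.23 rescaled (limma adjusted p = 0.298).

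Of 9 tested capillary genes, 1 was called higher and 1 lower between obese and lean samples, on both scales. Over all genes 0.352% were called higher and 16.5% lower as deposited, and 0.589% and 0.751% rescaled. Both called capillary genes belong to the handling of triglycerides at the capillary wall. Gpihbp1, which anchors lipoprotein lipase on capillary endothelium, was at 26.6, 22.8, 30.7 and 24.5 TPM in obese replicates 1 to 4, against 19.9, 15.4, 10.1 and 18.3 TPM in lean replicates 1 to 4. The groups did not overlap, and the change was 0.71 as deposited (limma adjusted p = 0.0238) and 0.96 rescaled (limma adjusted p = 0.0350). Lpl, lipoprotein lipase itself, made largely by heart muscle cells, was at 329, 353, 267 and 310 TPM in obese replicates 1 to 4, against 610, 484, 512 and 582 TPM in lean replicates 1 to 4. It lay lower in every obese sample than in any lean sample, at -0.80 as deposited (limma adjusted p = 0.00246) and -0.54 rescaled (limma adjusted p = 0.0375). Lpl was at 485 ± 79.8 TPM in obese+NAM samples, higher than in obese by 0.62 as deposited (limma adjusted p = 0.00477) and 0.29 rescaled (limma adjusted p = 0.214). Gpihbp1 was at 24.1 ± 4.81 TPM in obese+NAM samples, with a change of -0.13 from obese that was not called. The Gpihbp1 call was lost as deposited without obese replicates 1 or 3 (adjusted p up to 0.0665) and rescaled without lean replicates 2 or 3, obese replicates 1, 3 or 4 or obese+NAM replicate 2 (up to 0.0905). The rescaled Lpl call was lost without any one of the lean samples, obese replicates 2, 3 or 4 or obese+NAM replicates 2 or 4 (adjusted p up to 0.110).

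Of 6 tested arterial genes, 1 was called higher in obese than in lean samples, beside 0.352% of all genes as deposited and 0.589% rescaled. It was Gja5 (connexin 40, a gap junction protein of arterial endothelium and of atrial muscle), at 2.04 ± 0.231 TPM in obese and 1.33 ± 0.193 TPM in lean samples (SD, n = 4 each). The change was 0.38 as deposited (limma adjusted p = 0.0230) and 0.55 rescaled (limma adjusted p = 0.0266), and 0.34 and 0.49 without lean replicate 1, where neither was called. The deposited call was also lost without lean replicate 4 or obese replicate 1 (adjusted p up to 0.0693), and the rescaled call without any one of the lean samples or obese replicates 2 or 4 (up to 0.0768). The sum of 5 atrial markers was 164 to 1109 TPM in obese+NAM, 115 to 582 TPM in obese and 89.6 to 162 TPM in lean samples, with none at 0 in every sample, and its part in Gja5 was not tested. In the contractile list of smooth muscle, 5 of 15 tested genes were called lower in obese than in lean samples as deposited and 1 rescaled, beside 16.5% and 0.751% of all genes. Of the same 15, 5 were called higher in obese+NAM than in obese samples as deposited and 1 rescaled, beside 28.8% and 0.2% of all genes. The gene called on both scales in both comparisons was Ppp1r12b, a regulatory subunit of myosin phosphatase. It was at 13.0 ± 1.08 TPM in obese+NAM, 7.43 ± 0.956 TPM in obese and 12.4 ± 0.940 TPM in lean samples (SD, n = 4 each). Its rescaled changes were -0.44 for obese against lean (limma adjusted p = 0.0163) and 0.44 for obese+NAM against obese (limma adjusted p = 0.0259). The first was lost without lean replicates 1 or 3 (adjusted p up to 0.0534), and the second without obese replicates 3 or 4 or obese+NAM replicates 1, 3 or 4 (up to 0.0929). Between obese+NAM and lean samples, 1 of the 15 contractile genes was called lower rescaled, beside 1.59% of all genes. Heart muscle also expresses many genes of this list, such as Tpm1, and their part was not tested.

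In the junction and adhesion list, 9 of 16 tested genes were called higher in obese+NAM than in obese samples as deposited, beside 28.8% of all genes. After rescaling limma called none of them, with 0 higher and 1 lower at an unadjusted p below 0.05. Jam2, a junctional adhesion molecule, was at 29.1 ± 0.825 TPM in obese+NAM and 22.0 ± 2.06 TPM in obese samples (SD, n = 4 each), a change of 0.40 as deposited (limma adjusted p = 0.00664) and 0.08 rescaled. Clec14a, an endothelial lectin, was at 8.32 ± 0.589 TPM in obese+NAM and 5.88 ± 0.384 TPM in obese samples, at 0.44 and 0.15 on the same scales. Of 14 further pericyte genes tested, Ednra, an endothelin receptor, was called higher as deposited, at 8.75 ± 1.66 TPM in obese+NAM and 6.07 ± 0.911 TPM in obese samples, and not rescaled (0.17). Of the basement membrane list 2 of 10 tested genes were called lower in obese than in lean samples as deposited, beside 16.5% of all genes, and none rescaled, where 3 were higher and 2 lower at an unadjusted p below 0.05. The 2 called were the type IV collagen chains Col4a1, at 7.16 ± 1.40 TPM in obese and 11.5 ± 2.20 TPM in lean samples, and Col4a2, at 3.73 ± 0.862 TPM in obese and 6.19 ± 1.26 TPM in lean samples. Of the 9 Notch, 14 transcription factor and 11 BMP and TGF-beta genes tested, limma called none between obese and lean samples on either scale. At an unadjusted p below 0.05 the Notch list had 0 lower and 0 higher as deposited, the transcription factors 1 higher and 2 lower, and the BMP and TGF-beta list 0 higher and 2 lower, with 1, 2 and 1 higher and none lower after rescaling. Between obese+NAM and obese samples it called 1 of them as deposited, the BMP receptor Bmpr2. As deposited, 1 each was also called higher there of 6 arterial, 7 endocardial and lymphatic, 10 VEGF group and 10 basement membrane genes. The share of all genes was 28.8%. Between obese and lean samples as deposited, 1 each of 16 junction and 14 further pericyte genes was called lower, beside 16.5% of all genes. Between obese+NAM and lean samples rescaled, 1 of 10 basement membrane genes was called lower, beside 1.59%. None of 4 tested venous genes was called.

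**Figure D5:**
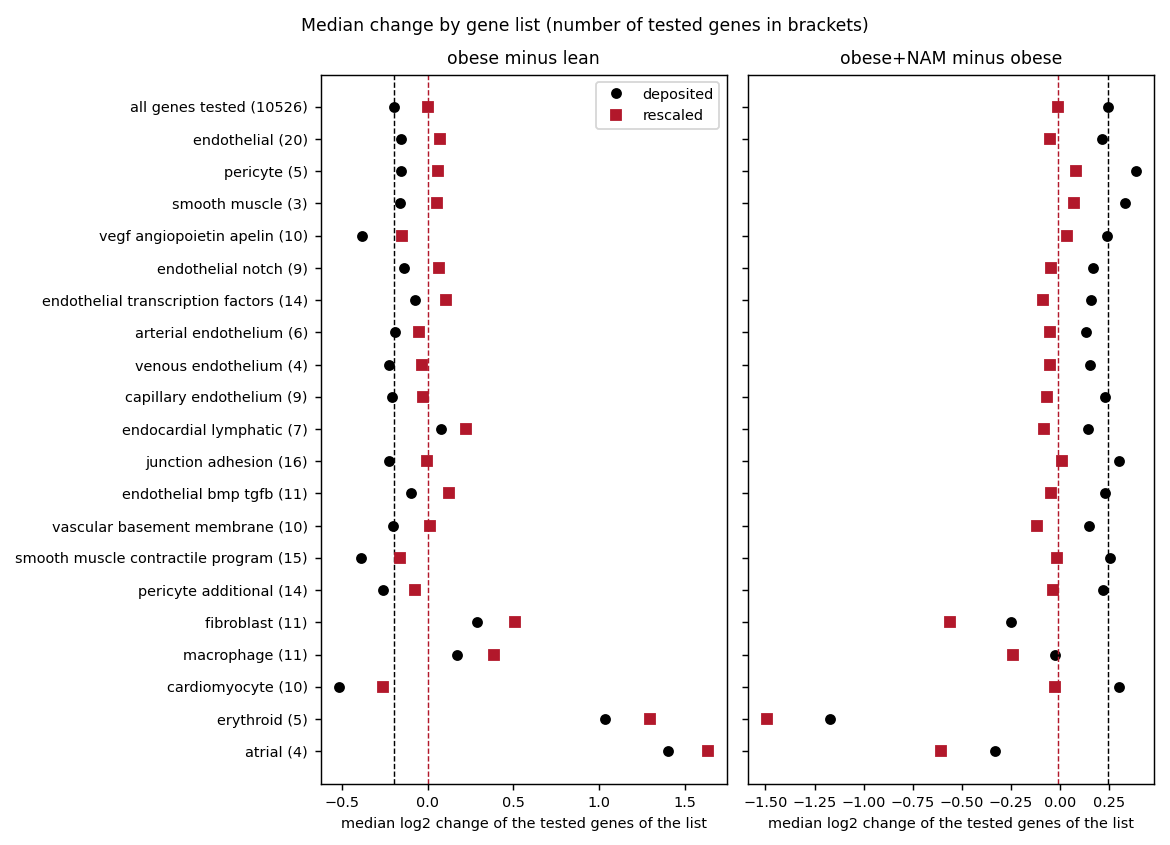
Median log2 change of the tested genes of each list for obese minus lean (left) and obese+NAM minus obese (right), as deposited (circles) and rescaled (squares), with dashed lines at the medians of all 10526 tested genes. For obese minus lean as deposited, the smooth muscle, pericyte and endothelial members lie at -0.16, -0.16 and -0.15 beside -0.20 for all genes, the smooth muscle contractile list at -0.39, the cardiomyocyte list at -0.52 and the erythroid list at 1.04.

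Fibroblast markers lay at a summed 557 to 687 TPM in obese+NAM, 554 to 978 TPM in obese and 628 to 680 TPM in lean samples. Macrophage markers lay at 104 to 114 TPM in obese+NAM, 46.4 to 214 TPM in obese and 71.9 to 116 TPM in lean samples. In both lists no gene was at 0 in every sample. Of 11 tested fibroblast genes, all 11 had positive changes in obese against lean samples, at a median of 0.29 as deposited, where limma called 1 higher beside 0.352% of all genes. At an unadjusted p below 0.05, 4 were higher and 0 lower as deposited. The share of all genes at that threshold was not counted, here or below. Rescaled the median was 0.51, with none called and 11 higher at an unadjusted p below 0.05. All 11 had negative changes in obese+NAM against obese samples, at a median of -0.25 as deposited, with 1 called lower beside 0.466% of all genes. At an unadjusted p below 0.05, 0 were higher and 2 lower as deposited. Rescaled the median was -0.56, with 2 called lower beside 0.513% of all genes and 9 lower at an unadjusted p below 0.05. Of 11 tested macrophage genes limma called none in either comparison. Their medians for obese against lean were 0.17 as deposited and 0.39 rescaled, with 0 and 1 higher and 0 lower at an unadjusted p below 0.05. For obese+NAM against obese they were -0.02 and -0.24, with 0 higher and 0 and 1 lower. The part of both cell types in the vascular results was not tested.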

How the data were processed

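RNA of 12 rat heart samples (4 per group) was extracted with TRIzol and RNeasy columns and made into strand-specific libraries with a NEBNext Ultra II kit, per the labels' protocols. The values are TPM as deposited by the authors, on the Rnor 6.0 assembly per the submitters' processing notes, which also name limma. Neither aligner nor quantifier is named in the sources used here. In the 4 obese+NAM columns 498 genes hold a text mark in place of a number, so other values in these columns were read as TPM and those genes were left out, leaving 17104. The 10526 genes that reached 1 TPM in 4 or more samples were fitted as log2(TPM + 1) with limma 3.58.1 in R 4.3.3 (3 group means, 9 residual degrees of freedom, eBayes, trend and robust both on) and adjusted by Benjamini-Hochberg within each comparison, at a threshold of 0.05, 2-sided. The fit was repeated after median-of-ratios rescaling. TPM keep no depth, and the only measure of precision is the spread within groups. Ratios were compared by 2-sided exact permutation tests. The limma fit without rescaling was tested on simulated data for obese against lean, with changes larger than those of any member. The rescaled fit was not tested in this way.

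Members and lists were chosen with earlier results of these data known. Members given with all sample values are those called without overlap between the groups, the 2 endothelial, 1 smooth muscle and 1 pericyte member with the smallest p, and Cdh5, Kdr, Acta2, Myh11, Rgs5 and Pdgfrb always. Kcnj8 is given likewise beside Abcc9, a choice made after its values were seen. Of each list, up to 2 of the called genes with the smallest p in a comparison are named, and some called genes are given only in counts. Other genes are marked as chosen after their values were seen. Alternatives were a pseudocount of 0.1, no filter, the replicate number as a block, TPM without mitochondrially encoded genes, and each sample left out in turn.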

Additional observations from a re-analysis of the deposited data

Results flagged for a closer look

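The TPM of 3 members in 1 sample each stood further from the rest of their group than Dixon's criterion allows at 4 samples. Over the 96 groups of 4 values examined, chance alone gives such a flag in about 5% of groups. Flt1 was at 5.51 TPM in obese replicate 3, against 7.02 to 7.03 TPM in the other obese samples. Aqp1 was at 111 TPM in lean replicate 1, against 90.3 to 91.5 TPM in the other lean samples. Rgs5 was at 99.6 TPM in obese+NAM replicate 2, against 152 to 162 TPM in the other obese+NAM samples. Without lean replicate 1, Aqp1 was still called lower in obese than in lean samples as deposited (log2 change -0.53).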

How the results depend on the processing

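The pseudocount of 0.1 changed no count of called members. With TPM recomputed without mitochondrially encoded genes, 1 member was called higher and 0 lower in obese than in lean samples (62 genes in all), 1 higher in obese+NAM than in obese samples (208 genes), and 569 genes were called between obese+NAM and lean samples. On that scale the changes between obese and lean samples turned positive for Myh11 (0.066), Kdr (0.061), Acta2 (0.11) and Pdgfrb (0.24), and Rgs5 was at 0.10 between obese+NAM and lean samples. With no filter, the genes called numbered 76 for obese against lean rescaled, 31 for obese+NAM against obese rescaled, and 124 and 146 for obese+NAM against lean as deposited and rescaled, with 0 members in both of the last. Same-numbered samples did not deviate together (correlations of -0.05 to 0.07 over 12 pairs), so the numbers were not used as pairs. With the replicate block, 0 members were called higher between obese and lean rescaled and between obese+NAM and lean on both scales, and 29 genes were called between obese+NAM and obese rescaled. The cause was not tested for any of these.

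With each sample left out in turn, the genes called ranged, as deposited and rescaled, from 1006 to 1966 and 27 to 224 for obese against lean, 1867 to 3640 and 10 to 156 for obese+NAM against obese, and 69 to 188 and 105 to 291 for obese+NAM against lean. Members called higher ranged from 0 to 1 for obese against lean rescaled, from 2 to 9 for obese+NAM against obese as deposited and from 0 to 1 for obese+NAM against lean on both scales. Members called lower ranged from 0 to 1 in the 3 rescaled comparisons, with the 1 without obese replicate 1 for obese against lean and without obese replicate 2 for the others. Small changes took both signs. Between obese and lean samples Pdgfrb ran from -0.17 to 0.047 as deposited, and rescaled Myh11 from -0.15 to 0.14, Kdr from -0.12 to 0.16 and Acta2 from -0.085 to 0.19. Between obese+NAM and obese samples rescaled, Aqp1 ran from -0.091 to 0.048, Myh11 from -0.016 to 0.27, Acta2 from -0.062 to 0.20 and Lamb1 from -0.060 to 0.036. Between obese+NAM and lean samples Rgs5 ran from -0.074 to 0.16 as deposited and from -0.12 to 0.045 rescaled, and rescaled Cdh5 from -0.058 to 0.041 and Acta2 from -0.012 to 0.26. Log2 ratios with both signs were Abcc9 to Kcnj8 for obese+NAM against lean (-0.071 to 0.13), Rgs5 to Cdh5 for obese against lean (-0.14 to 0.13), obese+NAM against obese (-0.18 to 0.087) and obese+NAM against lean (-0.14 to 0.10), and for obese+NAM against obese Pdgfrb to Cdh5 (-0.089 to 0.051) and Acta2 to Cdh5 (-0.18 to 0.11).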
